A study of Mus musculus with 17 samples.

Results

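The 3134Tet control line was profiled on 5 Affymetrix Mouse Gene 1.0 ST arrays, 5 of the 17 in the study. They were chosen by their labels: 2 arrays of the line with the tetracycline transactivator repressed and 3 arrays with it induced. The cells derive from a mouse mammary epithelial line. Stocks were kept in 5 µg/ml tetracycline, and cells were then grown for 48 h with the drug, which holds the transactivator off, or without it, which lets the transactivator be made. The control line makes the transactivator alone. The other 12 arrays come from 3 lines that carry the transactivator and also a dominant-negative, Flag-tagged Brg1, Chd4 or Snf2h, which are chromatin remodelers, each with 2 repressed and 2 induced arrays at the same 48 h. The labels do not say whether a line is 1 clone or whether replicates are separate cultures, so the p-values reflect no more than how far these arrays differed, and that spread may be technical.

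In a tetracycline-off system, a bacterial repressor domain fused to a viral activation domain binds tetracycline operators only when the drug is absent. The control line is the reference for what drug removal and the transactivator do without a dominant-negative remodeler. Brg1, encoded by Smarca4, is a motor of SWI/SNF complexes, Chd4 is a motor of NuRD, and Snf2h, encoded by Smarca5, is a motor of ISWI complexes. All 3 use ATP to move or restructure nucleosomes.

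Each value is a probe set's signal on a log2 scale, so that a difference of 1 is a 2-fold change. The 5 control arrays had medians between 5.48 and 5.59, and 19938 genes were tested, 1 probe set each. No probe set named for the transactivator was used, so its induction was not read on any array. Arrays are called by their labels throughout, as repressed replicates 1 and 2 and induced replicates 1, 2 and 3, and each such name means the array so labelled. The array labelled repressed replicate 1 and the array labelled induced replicate 1 each resembled the arrays of the opposite label, as the values below show. The label contrast and the count of genes whose labelled groups did not overlap are given with and without them. Many gene list counts compare repressed replicate 2 with repressed replicate 1 only, and so rest on the latter.

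The levels of cell type markers were first set against the labelled cell type. Of 15 epithelial markers, 6 had a mean over the control arrays under 4.82, the level below which the dimmest 30% of genes lie. Epcam, an epithelial adhesion molecule, averaged 4.17, and Cdh1, which encodes E-cadherin, averaged 5.32. Of 16 mesenchymal markers, 1 was under 4.82, and their averages ran from 3.32 to 12.84. The brightest were Vim, an intermediate filament gene, and Fn1, which encodes fibronectin, at 12.84 and 11.09. Of 14 macrophage markers, 10 were under 4.82, and the pan-leukocyte gene Ptprc averaged 4.44. The other 9 epithelial markers were above that level, up to 6.59 for the tight junction gene Cldn3. Under 4.82 were also 3 of 10 endothelial, 4 of 9 adipocyte and 0 of 12 myoepithelial markers and 6 of 9 milk genes. The dim level alone thus does not tell the cell types apart. Signals of different probe sets are not comparable as amounts, so these values place each marker only against the dim level. In a bulk sample, fewer cells of a type and less RNA per cell cannot be told apart.

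The genes of the 3 targeted remodelers differed little among the control arrays. Smarca4 read 9.35 and 9.12 on the repressed arrays and 9.25, 9.21 and 9.21 on the induced arrays. Chd4 read 10.08 and 9.81 on the repressed arrays and 9.98, 9.92 and 9.89 on the induced arrays. The highest Chd4 value among the 6 induced arrays of the other lines was 12.27. That maximum pools 3 lines, among them the line with dominant-negative Chd4, and does not describe each line. Smarca5 read 9.48 and 9.88 when repressed and 9.49, 9.58 and 9.53 when induced. For each of these genes the labelled groups overlapped, and none was called in any of the 10 array pairs. Nr3c1, which encodes the glucocorticoid receptor, ran from 8.99 to 9.17 over the 5 arrays. The label differences were -0.01 (SE 0.118) for Smarca4, -0.01 (SE 0.126) for Chd4, -0.14 (SE 0.15) for Smarca5 and -0.02 (SE 0.113) for Nr3c1, and each turned sign under some alternative without a call.

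The first comparison asked which genes differed between induced and repressed cells of the control line, taking the labels as given. No gene passed an adjusted p of 0.05 in limma with Benjamini-Hochberg adjustment (0.0% of 19938), and 237 genes had an unadjusted p under 0.05. The spread within each label was wide: 2322 genes (11.6%) had an SD over 0.5 among the 2 repressed arrays and 1375 (6.9%) among the 3 induced arrays. In the 6 groups of the other lines the same count ran from 3 to 142 genes. With repressed replicate 1 and induced replicate 1 left out, 3640 genes were called among the other 3 control arrays and 5310 when the other 15 arrays supplied the spread. Those counts compare 1 repressed with 2 induced arrays, and their direction follows from which arrays were left out.

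All 3 induced arrays lay above both repressed arrays for 989 genes (4.96%) and below both for 1541 genes (7.73%). Without repressed replicate 1 and induced replicate 1 the groups were separate for 16127 genes (80.9%), where only 3 arrays need to separate. Without any 1 array the number ran from 3816 to 10270. With so few arrays many genes separate by random order alone, so these counts do not show that genes follow the labels. Among the genes with separate groups and a level above the dimmest 30%, the highest label difference was that of Usp17ld, a member of a family of ubiquitin-specific proteases with near-identical copies, whose signals the probe set may mix. Usp17ld read 6.77 and 6.9 on the repressed arrays and 10.55, 7.21 and 7.64 on the induced arrays, a difference of 1.63 (SE 1.01, limma adjusted p = 1). Induced replicate 1 stood far above the other 4 arrays, and without it the difference was 0.59.

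The other genes at the top of that order had smaller differences and limma adjusted p of 1. Traf5, an adaptor of tumour necrosis factor receptors, read 6.19 and 5.97 when repressed and 6.54, 6.66 and 6.47 when induced, a difference of 0.47 (SE 0.127). Macrod2, an ADP-ribosylhydrolase, differed by 0.59 (SE 0.367), with 7.76 on induced replicate 1 and 6.43 to 6.76 on the other 4. Utf1, a transcription factor of undifferentiated embryonic cells, read 5.36 on both repressed arrays and 4.92, 4.74 and 4.93 on the induced arrays, a difference of -0.5 (SE 0.114). Cela3a, a pancreatic elastase gene, had the lowest difference at -0.58 (SE 0.183). Apart from Usp17ld, the genes this order named differed by less than 1.

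All 10 pairs of control arrays were then compared singly. In this fit each control array stood alone and the replicates of the 6 other groups supplied the spread, so each control array is assumed to vary like them and a call compares 2 arrays, not 2 conditions. The 2 repressed arrays differed in 4496 genes, with 2014 (10.1%) higher and 2482 (12.4%) lower in replicate 2. Among induced arrays, replicate 2 differed from replicate 1 with 2560 (12.8%) genes higher and 1775 (8.9%) lower, and replicate 3 with 2563 (12.9%) higher and 1738 (8.72%) lower. Induced replicates 2 and 3 differed in no gene (0.0%), with 1006 genes at an unadjusted p under 0.05 in limma.

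The 6 pairs of an induced and a repressed array fell apart in number and in direction. Against repressed replicate 2, induced replicate 2 had 2515 genes higher (12.6%) and 1803 lower (9.04%), and induced replicate 3 had 2558 higher (12.8%) and 1826 lower (9.16%). Against repressed replicate 1, the same 2 induced arrays had no call in limma (0.0%), with 1984 and 1998 genes at an unadjusted p under 0.05. Induced replicate 1 differed from repressed replicate 1 in 1750 genes higher (8.78%) and 2419 lower (12.1%). Induced replicate 1 differed from repressed replicate 2 in 9 genes higher (0.0451%) and 11 lower (0.0552%). That last count was 5 to 9 without any 1 dnBrg1 or dnChd4 array and 68 without either dnSnf2h repressed array.

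**Figure D1:**
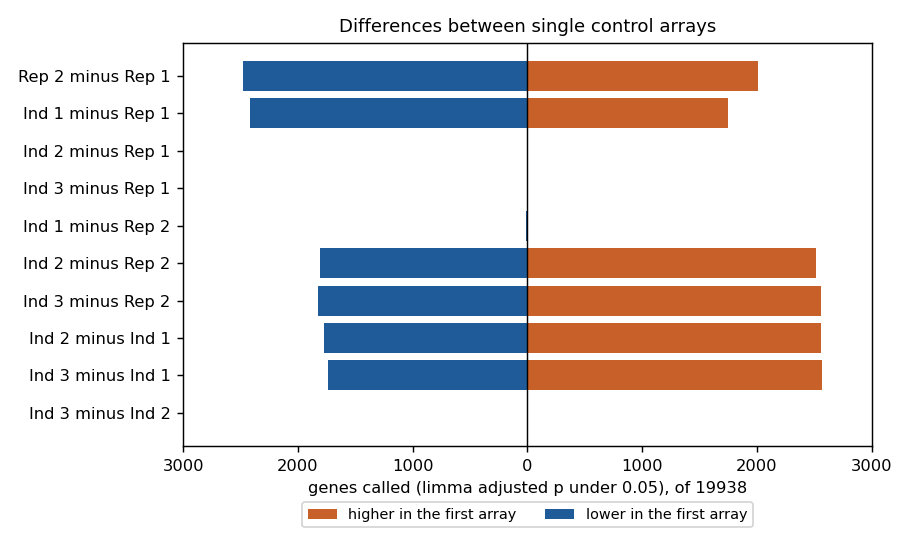
Genes called in each pair of control arrays, of 19938. Rep and Ind are the arrays labelled repressed and induced, with their replicate numbers; bars to the right count genes higher in the first-named array and bars to the left genes lower. The 6 long bars hold 4169 to 4496 genes each, and the other 4 pairs hold 20 or 0.

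The same order held without a test. The SD of the difference over all genes was 0.447 to 0.471 in the 6 pairs with many calls and 0.165 to 0.221 in the other 4 pairs. Replicate pairs of the other lines gave 0.125 to 0.237, and induced against repressed arrays of those lines gave 0.283 to 0.368. Past 2-fold, repressed replicates 1 and 2 differed in 1102 genes, whereas replicate pairs of the other lines differed in 0 to 15. The difference between the 2 repressed control arrays was thus wider than any induced-repressed pair of the other lines by this measure.

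The genes of widest range over the 5 arrays showed the same division gene by gene. Adgrg1, an adhesion G protein-coupled receptor, read 10.52 and 7.11 on the repressed arrays and 7.22, 10.52 and 10.47 on the induced arrays. Repressed replicate 1 sat with induced replicates 2 and 3, and induced replicate 1 sat with repressed replicate 2, so the labelled groups overlapped. The label difference of Adgrg1 was 0.59 (SE 1.42, limma adjusted p = 1), while induced replicate 2 exceeded repressed replicate 2 by 3.41 (SE 0.142, limma adjusted p = 9.1e-09). The repressed arrays of the other lines read 6.81 to 7.76 for Adgrg1 and their induced arrays 8.25 to 10.67.

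Gstm5, a glutathione S-transferase, read 9.7 and 6.74 when repressed and 6.57, 9.92 and 9.86 when induced. Aldh1a1, a retinaldehyde dehydrogenase, read 8.45 and 5.62 when repressed and 5.2, 8.55 and 8.53 when induced. Both had repressed replicate 1 and induced replicates 2 and 3 high and the remaining 2 arrays low. Mcam, a cell adhesion molecule, read 8.64 and 5.83 when repressed and 6.32, 8.71 and 8.68 when induced. Nppb, which encodes B-type natriuretic peptide, read 8.8 and 7.04 when repressed and 6.34, 9.5 and 9.35 when induced. Cpeb4, an RNA-binding regulator of translation, and Tcp11l2 had the same arrays high and low, with ranges of at least 2.99.

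Cxcl3, a chemokine that attracts neutrophils, ran the other way. It read 5.33 and 8.15 on the repressed arrays and 7.11, 5.8 and 5.29 on the induced arrays. Induced replicate 1 lay between repressed replicate 2 and the rest, and was lower than repressed replicate 2 by 1.03 (limma adjusted p = 0.0365). Cxcl3 and Cxcl5, a related chemokine, were called in 7 of the 10 pairs, and no gene in more. Cxcl5 read 4.96 and 7.35 when repressed and 6.46, 4.84 and 5.03 when induced. Of all genes, 12445 were called in no pair and 2342 in 6 pairs.

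**Figure D2:**
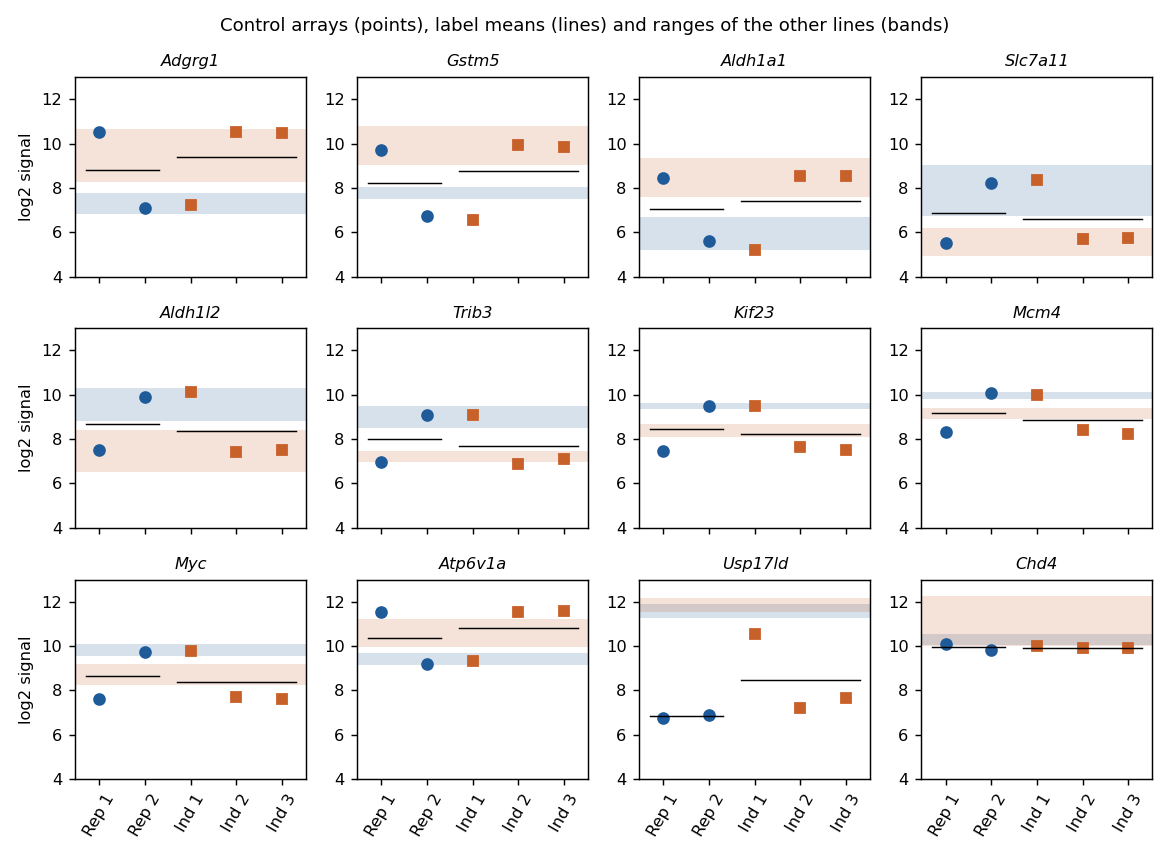
Log2 signal of 12 genes on the 5 control arrays, blue circles for arrays labelled repressed (Rep) and orange squares for induced (Ind), with black lines for label means. Blue and orange bands are the ranges of the 6 repressed and 6 induced arrays of the other lines. Adgrg1 reads 10.52 on repressed replicate 1 and 7.22 on induced replicate 1.

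Gene lists by role gave the biological content of the divided arrays. In all list counts below, higher and lower mean called in limma for that pair of arrays. Members not counted may lie on either side. Genes of the ATF4 response, which raise amino acid uptake and synthesis under amino acid or protein folding stress, were high on repressed replicate 2 and induced replicate 1. Of 33 measured members, 28 were called higher in repressed replicate 2 than in repressed replicate 1 and none lower. Among all genes 10.1% were called higher and 12.4% lower. In induced replicate 2 against repressed replicate 2, 27 were lower and none higher, beside 9.04% and 12.6%. The median member differed by 1.11 in the first pair and by -1.14 in the second, while the median of all genes differed by -0.01 and -0.02. By label the median difference was -0.16, with no gene called. In 1 of the 33 members all induced arrays lay below both repressed arrays, beside 7.73% of all genes.

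Slc7a11, the cystine importer, read 5.5 and 8.23 when repressed and 8.35, 5.71 and 5.72 when induced. Aldh1l2, a mitochondrial folate enzyme, read 7.5 and 9.91 when repressed and 10.12, 7.44 and 7.5 when induced. Slc6a9, a glycine transporter, read 7.51 and 9.88 when repressed and 9.94, 7.28 and 7.46 when induced. In each, the labelled groups overlapped, with repressed replicate 2 and induced replicate 1 high. Trib3, a pseudokinase induced by ATF4, exceeded repressed replicate 1 by 2.11 in repressed replicate 2 and by 2.12 in induced replicate 1 (limma adjusted p = 9.29e-06 and 1.02e-05). Cth, Vldlr and Stc2 of the same list ranged by at most 0.36. Of 18 cytosolic aminoacyl-tRNA synthetases, which load tRNAs with amino acids, 12 were higher in repressed replicate 2 than replicate 1 and none lower, beside 10.1% and 12.4% of all genes. Cars, the cysteinyl-tRNA synthetase, was at 10.67 against 8.99.

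Genes of cell division moved with the same arrays. Of 29 G2 and mitosis genes, all 29 were higher in repressed replicate 2 and in induced replicate 1 than in repressed replicate 1, and 29 were lower in induced replicate 3 than in repressed replicate 2. The shares of all genes in those directions were 10.1%, 8.78% and 9.16%. Kif23, a kinesin of the central spindle, read 7.46 and 9.49 when repressed and 9.49, 7.65 and 7.53 when induced. Anln, which encodes the contractile ring protein anillin, read 9.02 and 10.62 when repressed and 10.48, 9.07 and 8.8 when induced. Prc1, which bundles central spindle microtubules, read 8.03 and 9.81 when repressed and 9.74, 8.29 and 8.23 when induced. None of the 29 genes was called in induced replicates 2 or 3 against repressed replicate 1, where the median differences were 0.18 and 0.1.

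Promoters of the 3 members of widest range are shown because many late cell cycle genes carry a CHR element, with the letters TTTGAA, near their start. The windows run from 250 bases before to 50 bases after the start site in RefSeq GRCm38.p6, 5′ to 3′, with matches to TTTGAA or its reverse complement in capitals. They are chr9:61946750-61947049 on the minus strand for Kif23, chr9:22389157-22389456 on the minus strand for Anln and chr7:80294201-80294500 on the plus strand for Prc1.
Kif23: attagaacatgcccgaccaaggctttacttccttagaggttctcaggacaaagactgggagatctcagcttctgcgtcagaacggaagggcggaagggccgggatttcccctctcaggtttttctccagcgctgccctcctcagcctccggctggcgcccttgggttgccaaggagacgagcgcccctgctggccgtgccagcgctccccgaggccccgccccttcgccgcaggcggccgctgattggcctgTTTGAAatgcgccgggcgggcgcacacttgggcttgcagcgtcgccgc
Anln: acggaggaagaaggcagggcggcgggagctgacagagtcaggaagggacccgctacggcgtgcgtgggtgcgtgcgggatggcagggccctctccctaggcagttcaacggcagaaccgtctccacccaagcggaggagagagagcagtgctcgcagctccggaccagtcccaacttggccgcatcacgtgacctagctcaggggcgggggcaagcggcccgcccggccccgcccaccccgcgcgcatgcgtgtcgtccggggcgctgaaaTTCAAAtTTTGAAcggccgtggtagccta
Prc1: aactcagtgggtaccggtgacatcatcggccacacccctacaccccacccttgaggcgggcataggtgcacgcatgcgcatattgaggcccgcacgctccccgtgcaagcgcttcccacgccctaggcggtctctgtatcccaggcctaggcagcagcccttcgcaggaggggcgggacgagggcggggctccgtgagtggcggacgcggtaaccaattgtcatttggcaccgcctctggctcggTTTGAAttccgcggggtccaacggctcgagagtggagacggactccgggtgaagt
Of 28 windows of the 25 list members with one, 22 held TTTGAA on either strand (78.6%), against 17.9% of all 32851 windows and 8.57% of the 35 windows of the ATF4 list. The composite ATF4 element TGATGNAAT, searched the same way, was in 2 of the 35 ATF4 windows (5.71%) and in 0.965% of all windows. A match is a description of these letters, not a site of binding.

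Of 31 S phase genes, 28 were called higher in repressed replicate 2 than in replicate 1 and none lower, beside 10.1% and 12.4% of all genes. Mcm4, a subunit of the replicative helicase, read 8.31 and 10.09 when repressed and 9.98, 8.4 and 8.22 when induced. Pold1, a DNA polymerase subunit, read 6.94 and 8.52 when repressed and 8.69, 6.76 and 6.9 when induced. Both genes had the labelled groups overlapping. Ccne1, cyclin E1, stayed between 8.1 and 8.27. Hells, a remodeler of dividing cells, read 8.73 and 10.56 when repressed and 10.39, 8.97 and 9.04 when induced. Hells was the 1 gene of 20 listed remodeler motors that ranged over 1. Chd2, another of them, read 7.16 and 7.83 when repressed and 8.06, 7.11 and 7.09 when induced. Of the 20, 2 were called higher and 2 lower in repressed replicate 2 than replicate 1, near the shares of all genes.

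Of 31 ribosome biogenesis genes, 30 were higher in repressed replicate 2 than replicate 1 and 27 lower in induced replicate 2 than in repressed replicate 2, beside 10.1% and 9.04% of all genes. Myc, a transcription factor of growth, read 7.59 and 9.71 when repressed and 9.77, 7.72 and 7.63 when induced. Rrs1, a ribosome assembly factor, read 6.95 and 9.53 when repressed and 9.01, 7.7 and 7.28 when induced. Repressed replicate 2 and induced replicate 1 were the high arrays for both. Among 12 histone genes, 8 were higher in repressed replicate 2 than replicate 1, beside the same 10.1%, with H2ac4 at 8.89 against 6.25.

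Lysosomal genes ran the opposite way. Of 37 genes, 21 were called lower and 2 higher in repressed replicate 2 than replicate 1, beside 12.4% and 10.1% of all genes. In induced replicate 3 against repressed replicate 2, 19 were higher and 1 lower, beside 12.8% and 9.16%. Atp6v1a, a subunit of the proton pump, read 11.52 and 9.21 when repressed and 9.31, 11.54 and 11.58 when induced. Smpd1, acid sphingomyelinase, read 9.5 and 7.97 when repressed and 7.72, 9.54 and 9.46 when induced. The protease gene Ctsd ranged by 0.21 and Sqstm1, an autophagy receptor, by 0.11.

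Other lists moved in parts. Among 21 p53 targets, 9 were lower and 4 higher in repressed replicate 2 than replicate 1, beside 12.4% and 10.1% of all genes. Trp53inp1 read 7.58 and 5.59 when repressed and 6.24, 7.58 and 7.65 when induced, and Gadd45a read 9.18 and 10.36 when repressed and 10.88, 9.18 and 9.12 when induced. The 2 genes, both known for roles in stress and growth arrest, thus had opposite arrays high. Of 22 smooth muscle genes, 7 were higher and 1 lower in induced replicate 2 than in repressed replicate 2, beside 12.6% and 9.04% of all genes. Acta2, smooth muscle actin, read 7.7 and 6.04 when repressed and 5.86, 7.87 and 8.06 when induced. Of 22 glycolysis and hypoxia genes, 9 were higher and 1 lower in repressed replicate 2 than replicate 1, beside 10.1% and 12.4% of all genes. Hk2, a hexokinase, read 8.55 against 7.32 in that pair, and Ndrg1, a hypoxia-induced gene, 9.68 against 8.47.

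Markers of cell types were counted in the pair of repressed arrays, where 22.5% of all genes were called in either direction. In that pair 4 of 16 mesenchymal markers were higher and 1 lower in replicate 2, with Snai2, a repressor of epithelial genes, at 8.47 against 6.64. The count was 1 of 15 epithelial, 2 of 14 macrophage, 1 of 9 adipocyte, 1 of 10 endothelial and 4 of 12 myoepithelial markers and 1 of 9 milk genes in either direction. Median deviations of these 7 lists from the 5-array mean ran from -0.17 to 0.13, and their part in the other results was not tested.

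**Figure D3:**
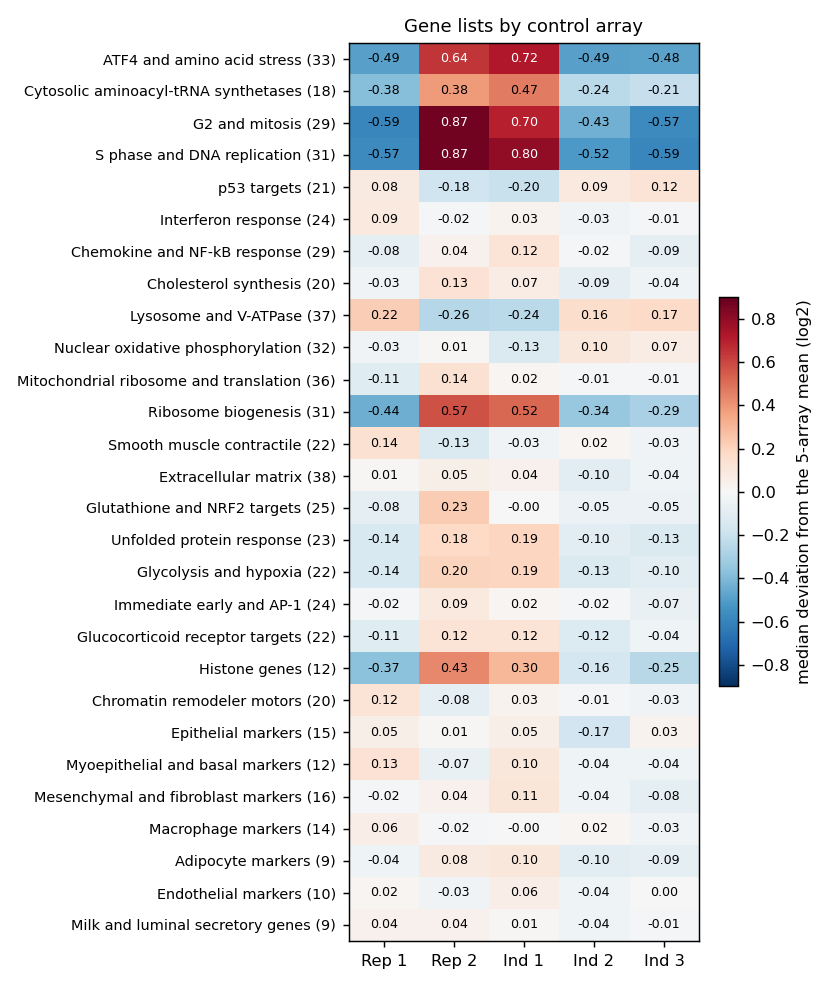
Median log2 deviation from the 5-array mean of each gene list (rows, measured genes in parentheses) on each control array (columns, Rep for repressed and Ind for induced). The G2 and mitosis list reads 0.87 on repressed replicate 2 and 0.7 on induced replicate 1, against -0.59, -0.43 and -0.57 on the other 3 arrays.

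The control arrays were next set beside the induction of the other lines, which share no array with them. In separate fits of each line, 552 genes rose and 452 fell on induction in all 3. For the 552 genes the median level was 7.59 to 7.8 on the 6 repressed arrays and 8.41 to 8.52 on the 6 induced arrays of those lines. The control arrays read 8.55 and 7.52 when labelled repressed and 7.53, 8.59 and 8.62 when labelled induced. For the 452 genes the other lines read 8.76 to 8.89 repressed and 7.85 to 8.14 induced, and the control arrays read 7.52 and 8.82 repressed and 8.73, 7.64 and 7.57 induced. Repressed replicate 1 was on the side of the induced arrays of the other lines in both sets, and induced replicate 1 on the side of the repressed arrays.

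**Figure D4:**
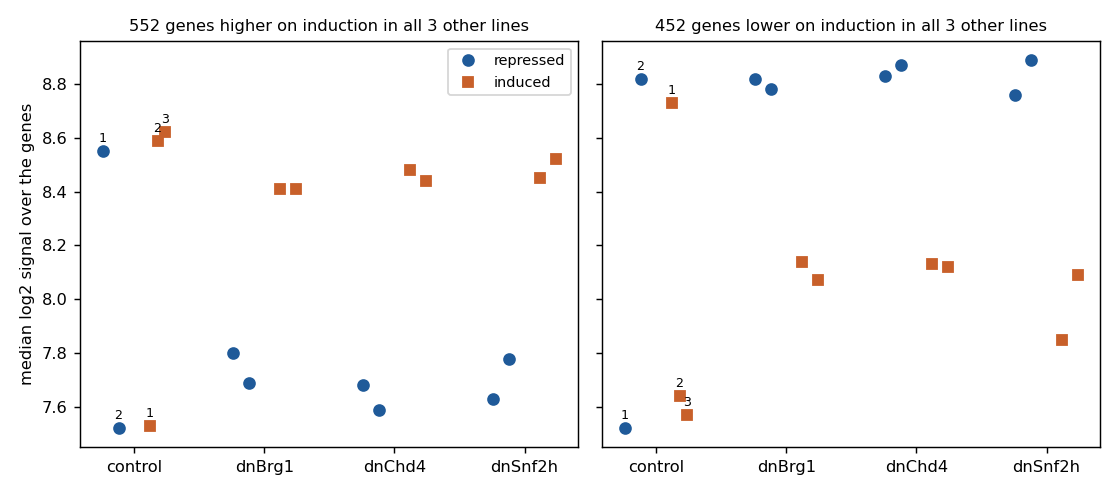
Median log2 signal of the 552 genes that rose (left) and the 452 that fell (right) on induction in all 3 other lines, for each array, with circles for repressed and squares for induced. Numbers beside the control points are replicates. Control repressed replicate 1 reads 8.55 at left and induced replicate 1 reads 7.53.

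Each control difference was also set against the mean induction of the 3 other lines across all genes. Induced replicate 2 minus repressed replicate 2 gave r = 0.831 across genes, and induced replicate 3 minus repressed replicate 2 gave 0.824. Induced replicate 1 minus repressed replicate 1 gave r = -0.815. The other 3 pairs gave 0.0123, 0.022 and 0.0501. Genes are not independent replicates, and these values are descriptions. The slopes on the mean induction were 1.43 and 1.44 in the first 2 pairs and -1.38 in the reversed pair.

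**Figure D5:**
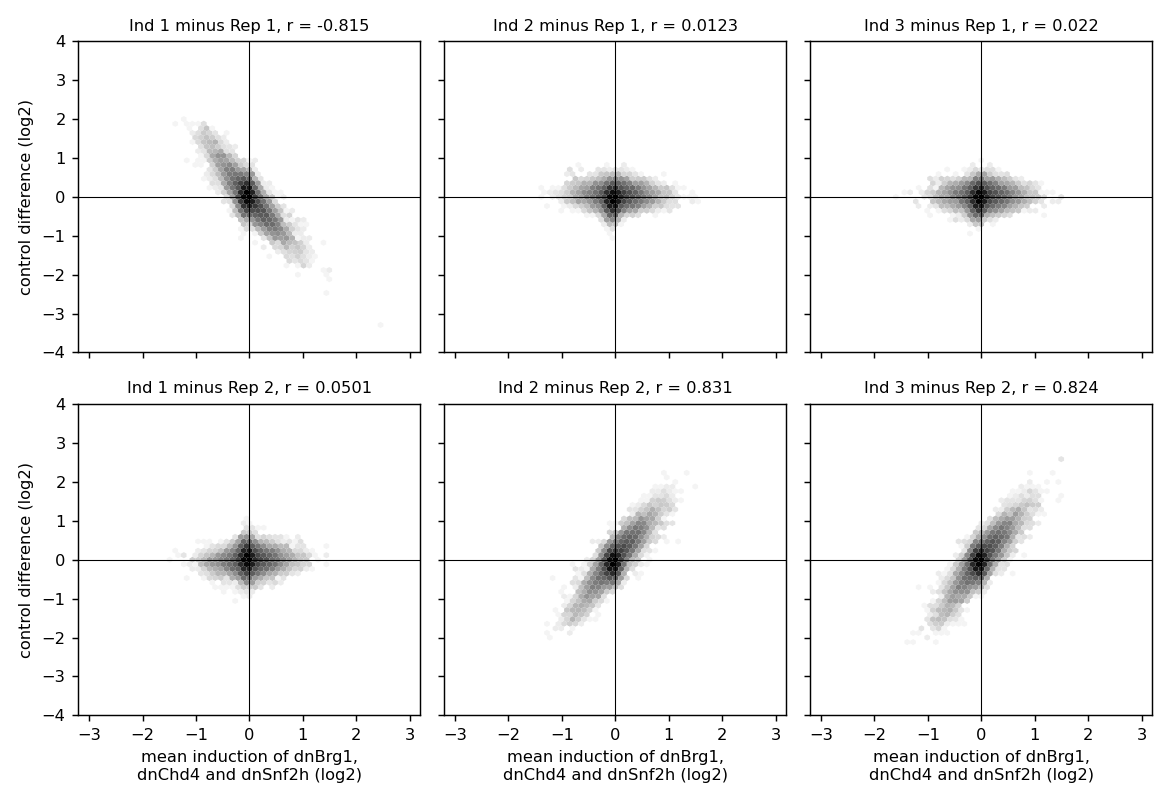
Log2 difference of each induced and repressed control array pair (vertical) against the mean log2 induction of the dnBrg1, dnChd4 and dnSnf2h lines (horizontal), with darker hexagons holding more genes on a log scale. Pairs with repressed replicate 2 and induced replicates 2 or 3 rise (r = 0.831 and 0.824), induced replicate 1 minus repressed replicate 1 falls (r = -0.815), and the other 3 are flat.

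The difference between each control pair and the mean induction was tested in the same fit. It passed in 339 genes (1.7%) for induced replicate 2 minus repressed replicate 2 and in 558 (2.8%) for induced replicate 3 minus repressed replicate 2. It passed in 1500 (7.52%) and 1419 (7.12%) genes for the same 2 induced arrays minus repressed replicate 1, and in 1515 (7.6%) for induced replicate 1 minus repressed replicate 2. For induced replicate 1 minus repressed replicate 1 it passed in 6184 genes (31.0%). The lowest of these counts, 339, was 858 without dnSnf2h repressed replicate 1 and 99 without dnBrg1 induced replicate 2.

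Some control differences that share no array ran against each other across genes. Induced replicate 1 minus repressed replicate 1 had r = -0.818 with induced replicate 2 minus repressed replicate 2 and -0.81 with induced replicate 3 minus repressed replicate 2. The correlation of each control array with the other lines had the same order. Repressed replicate 1 had a median r of 0.971 with the 6 repressed and 0.986 with the 6 induced arrays of the other lines, and induced replicate 1 had 0.987 and 0.978. The other 3 control arrays had the higher r with the arrays of their own label.

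Genes that mark a line were then read on the control arrays. A set of 26 genes was at least 2-fold higher on every dnBrg1 array than on every array of the other 2 dominant-negative lines, and no gene met that rule for dnChd4 or dnSnf2h. The dnBrg1 arrays had medians of 6.76 to 7.34 over these genes, and the control arrays 5.0, 4.91, 5.11, 4.81 and 4.77 in the order repressed 1 and 2 and induced 1 to 3. Nckap1l, a haematopoietic actin regulator, read 4.61 and 4.51 when repressed and 4.13, 4.43 and 4.42 when induced, and the other lines reached 8.33. Myh10, a nonmuscle myosin, ran from 4.84 to 5.17. All 5 arrays, including the 2 that went against their labels, were low for both.

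Genes named next were chosen after their values were seen. S100a7a, a small calcium-binding protein, was at least 2-fold higher on all 5 control arrays than on any other array, and 9 genes were at least 2-fold lower. Lcn2, an iron-carrier binding protein of the acute response, read 5.25 and 4.93 when repressed and 5.14, 4.5 and 4.63 when induced, and the other lines read 8.47 to 11.2. Saa3, an acute phase protein, read 3.78 to 4.74 in the control line and 7.64 to 10.66 in the others. All 5 control arrays lay below every array of the other lines for Lcn2 and Saa3.

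The 20 genes called between induced replicate 1 and repressed replicate 2 were led by Usp17ld, higher by 3.66 (SE 0.208, limma adjusted p = 7.09e-07). Its level of 10.55 on induced replicate 1 lay nearer to the other lines, at 11.28 to 12.17, than to the other 4 control arrays, at 6.77 to 7.64. Macrod2 read 7.76 on induced replicate 1, inside the 7.34 to 8.42 of the other lines, and 6.43 to 6.76 on the other 4. Mcpt8, a granule protease of the mast cell protease family, read 6.01 and 6.16 when repressed and 4.69, 7.03 and 7.0 when induced, with the other lines at 3.89 to 4.5. S100a7a read 9.15 on induced replicate 1, 9.93 to 10.48 on the other control arrays and 6.4 to 7.96 in the other lines. In all 4 genes induced replicate 1 stood on the side of the other lines relative to the remaining control arrays. How many of the 20 calls did so was not counted. Lcn2 and Saa3 did not. At 5.14 and 4.35, induced replicate 1 lay within the range of the other 4 control arrays, 4.5 to 5.25 and 3.78 to 4.74. The part of any other RNA in these values was not tested.

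Dusp6, a phosphatase that dampens ERK signalling, did not follow that order. It read 6.45 and 7.36 when repressed and 5.96, 7.28 and 7.15 when induced, and the other lines ran from 6.31 to 7.57. It was lower by 1.4 in induced replicate 1 than in repressed replicate 2 (limma adjusted p = 0.0363). Tns1, which encodes the focal adhesion protein tensin, was higher by 1.29 in the same pair (limma adjusted p = 0.0484). Of the 20 calls, 11 were past 2-fold.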

How the data were processed

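RNA was measured on 17 arrays, 5 of them from the control line. The deposited table holds log2 values, 1 per probe set and array, made by the authors with Affymetrix Expression Console per the submitters' processing notes; the log2 scale was judged from the values (2.02 to 14.86). Its version, how probes were summarized and normalized, and the build: not given in the sources used here. Background signals were not used. Of 35557 probe sets, 21789 had 1 symbol, 1621 several and 12147 none. A gene with several probe sets was represented by the brightest on average, giving 19938 genes. No further scaling was done.

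Groups came from the sample titles. limma 3.58.1 in R 4.3.3 fitted the label contrast on the 5 control arrays, and all array pairs on 17 arrays with each control array as its own level, with Benjamini-Hochberg adjustment over all genes and a threshold of 0.05. The scripts were tested on simulated data. The difference from the mean induction of the other lines, and the fits and the non-overlap count without repressed replicate 1 and induced replicate 1, were added after seeing the data. Same-numbered control arrays deviated from their label means in opposite directions (r = -0.762 and -0.648 for replicates 1 and 2). The deviations of the 2 repressed arrays mirror each other, so these values are not independent. Because repressed replicate 1 and induced replicate 1 each resembled the opposite label, they cannot tell whether the numbers pair samples. The main fits did not pair by number.

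The members, gene lists and rules were chosen with earlier results of these data known. Named genes were the 5 highest and 5 lowest label differences with separate groups above the dimmest 30%, the 10 widest ranges, the extremes of each pair, the 3 widest-ranging members of each list, the 2 widest-margin line genes, and Smarca4, Chd4, Smarca5 and Nr3c1; others were chosen after their values were seen. The number of arrays limits the precision. Alternatives were the samples fitted, the variance prior, array weights, a filter on dim genes, scaling, all probe sets, fold minimums and leaving out arrays.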

Additional observations from a re-analysis of the deposited data

Results flagged for a closer look

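The differences between control array pairs and the mean induction of the other 3 lines were marked because they passed a direct test in limma. The number of genes that passed was 6184 for induced replicate 1 minus repressed replicate 1. It was 1500 for induced replicate 2 and 1419 for induced replicate 3, each minus repressed replicate 1. It was 1515 for induced replicate 1 minus repressed replicate 2. The fewest passed for induced replicates 2 and 3 minus repressed replicate 2, at 339 and 558. Each test compares single arrays and takes their spread from the other lines. No group held 4 or more arrays, so no array was tested as an outlier within its group.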

How the results depend on the processing

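The label contrast had 0 calls in limma under the 9 alternatives that kept all 5 control arrays, the replicate block included (6 genes at an unadjusted p under 0.05), and 0 without any 1 array; it had 3640 and 5310 calls with repressed replicate 1 and induced replicate 1 left out (3 control arrays, or 15 arrays), with the cause not tested. Induced replicate 3 minus repressed replicate 1 had 1 call with a trended prior, and induced replicate 2 minus repressed replicate 1 had 0 to 9 without any 1 array of the other lines. Induced replicate 1 minus repressed replicate 2 had 6 calls without dim genes, 8 after quantile normalization, 7 over all probe sets, and 5 to 68 without any 1 array. The 6 pairs with many calls had between 3677 and 5224 without any 1 array. Non-overlap held for 1384 genes without dim genes (fewer genes counted), 16127 without the 2 arrays and 3816 to 10270 without any 1 (fewer arrays to separate).

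Against the mean induction, all probe sets gave 787, 773 and 928 calls for induced replicates 2 and 3 minus repressed replicate 1 and for induced replicate 1 minus repressed replicate 2, and 10 and 18 for induced replicates 2 and 3 minus repressed replicate 2, where median centring gave 217 and 320. Without any 1 array of the other lines these 5 counts ran 962 to 2135, 940 to 2067, 945 to 2228, 99 to 858 and 203 to 1132, and that of induced replicate 1 minus repressed replicate 1 ran 5668 to 6814. At a 2-fold minimum the shared genes were 25 higher and 22 lower, and at 4-fold the dnBrg1 set held 5 genes.

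Label differences that turned sign, none of them called, were for Smarca4 0.01 (median centring), 0.09 (without the 2 arrays, both fits) and -0.12 to 0.11 (without any 1 array); for Chd4 0.01 (replicate block, and quantile normalization), 0.1 and -0.15 to 0.12; for Nr3c1 0.02 (array weights), 0.04 and -0.07 to 0.02; and for Slc7a11 0.16 (replicate block) and -1.64 to 1.09. Without any 1 array, Smarca5 ran -0.34 to 0.06 and Adgrg1 -1.12 to 2.29. Of 816 settings run on 48 gene and pair differences, 806 kept the call and 10 lost it. None reversed, but only quantile normalization and median centring change a difference between 2 single arrays. The other settings could not reverse a sign. The arrays of a label differ widely, so the label contrast has wide errors (SE 1.42 for Adgrg1), and low signals limit the smaller differences.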

Other observations

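Counts in this section are of genes called in limma in the pair named. Of 24 interferon response genes, 7 were called lower and none higher in repressed replicate 2 than in replicate 1. Of all genes 12.4% were called lower and 10.1% higher there. Ddx58, which encodes the RNA sensor RIG-I, read 8.47 and 6.91 on the repressed arrays and 7.07, 8.42 and 8.38 on the induced arrays. Of 23 genes of the unfolded protein response, 10 were higher and 2 lower in the same pair, with the same shares of all genes. Herpud1, a membrane protein of endoplasmic reticulum quality control, read 9.93 against 8.32. In both genes the labelled groups overlapped.

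Between the repressed arrays 4 of 38 extracellular matrix genes were higher and 5 lower in replicate 2, which is near the 10.1% and 12.4% of all genes and no result about the list. Col5a2, a fibrillar collagen chain, read 10.95 and 9.6 when repressed and 9.72, 11.09 and 11.1 when induced. Lox, a collagen cross-linking enzyme, read 7.94 and 9.22 when repressed and 9.27, 7.98 and 7.81 when induced.

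Other lists were counted in the same pair, replicate 2 against replicate 1, where 10.1% of all genes were higher and 12.4% lower. Glutathione and NRF2 target genes had 11 of 25 higher and 4 lower, and genes of mitochondrial translation had 12 of 36 higher and 3 lower. Immediate early genes had 8 of 24 higher and 2 lower. Glucocorticoid receptor targets had 5 of 22 higher and 2 lower. Cholesterol synthesis genes had 2 of 20 higher and 1 lower, at or below the shares of all genes. Oxidative phosphorylation genes had 6 of 32 higher and 1 lower, and chemokine and NF-kB genes 5 of 29 higher and 1 lower.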
